A study of Mus musculus with 6 samples.

Results

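A group of 10 genes that set how fast cells take up glucose and run glycolysis was followed in mouse vagal jugular-nodose ganglia, where the sensory neurons of the vagus nerve have their cell bodies. They were chosen by symbol and are the glucose transporter genes Slc2a1 and Slc2a3, the hexokinase genes Hk1 and Hk2, the phosphofructokinase genes Pfkl, Pfkm and Pfkp, the phosphofructokinase activator gene Pfkfb3, the pyruvate kinase gene Pkm and the lactate dehydrogenase gene Ldha. All 10 were found among the 32719 genes of the count tables, and all 10 passed the filter on low counts, which 16019 genes passed. The treated group was 3 libraries whose titles name treatment, and the control group was 3 libraries whose titles name control. Both groups were wild type (WT), and the protocol describes male C57BL/6J mice with subcutaneous osmotic pumps that delivered S961, a peptide that blocks the insulin receptor, in PBS at 10 nmol per week for 2 weeks, or PBS alone. The treatment label reads S961 in both groups, so that the control mice received PBS alone rests on the titles and the protocol. No label says that the 3 libraries of a group came from separate animals, so p-values measure the spread between these libraries, which may be technical. S961 was given to the whole animal, and each library holds all cell types of the ganglia.

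Glucose enters cells through facilitative transporters, and hexokinase traps it as glucose 6-phosphate. Phosphofructokinase then commits the sugar to glycolysis, and fructose 2,6-bisphosphate, the product of PFKFB3, is the strongest allosteric activator of that step. Pyruvate kinase makes pyruvate at the end of the pathway, and lactate dehydrogenase interconverts pyruvate and lactate. Neurons take up glucose mainly through GLUT3, encoded by Slc2a3, and are known to hold PFKFB3 protein low by degradation, while endothelial and glial cells rely on GLUT1, encoded by Slc2a1.

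The libraries held 12898607 to 33522486 gene counts. Treated replicate 3, the smallest, stood apart, with correlations of 0.920 to 0.944 with the other 5 libraries across genes, against 0.968 to 0.989 among those 5. It had the largest share of counts from small RNA genes, 11.3% against 4.42% to 7.05% in the others, and the smallest share of reads that uniquely overlapped a gene, 46.6% against 48.4% to 52.3%. RIN, a score of RNA integrity, was 6.6 to 9.1 in the protocol, with no value per library, and the part of RNA quality in these results was not tested. The ganglia are named by the cell labels, and the tissue label gives spinal cord instead. Age is not in the labels used here. Summed over 6 pan-neuronal markers, levels in CPM (counts scaled to a common library size) were 4326 to 5651 in the treated libraries and 5216 to 5775 in the control libraries. The 5 spinal cord markers together reached 1.37 to 4.85 CPM in the treated libraries and 0.923 to 1.09 CPM in the control libraries. Gfap made up most of each treated sum, at 0.803, 1.81 and 3.90 CPM, against 0.654 to 0.860 CPM in the control libraries. Slc6a5 had 12, 0 and 9 counts in treated and 3, 3 and 1 in control replicates 1, 2 and 3. Mnx1 had 5, 1 and 3 against 0, 2 and 0 counts, and Mog had 2, 0 and 0 against 0 in every control library. Olig2, a marker of spinal cord oligodendrocytes, had 0 counts in every treated library and 1, 2 and 5 counts in the control libraries. Schwann cell markers summed to 1264 to 2014 CPM in treated and 1024 to 1641 CPM in control libraries, satellite glia markers to 2166 to 2721 and 1881 to 2591 CPM, and fibroblast markers to 243 to 1272 and 297 to 646 CPM. Erythroid markers summed to 7.80 to 23.3 CPM in treated and 17.1 to 52.4 CPM in control libraries, and sympathetic or glomus markers to 30.7 to 61.2 and 73.1 to 90.0 CPM, with Npy at 0 counts in treated replicate 1. Together the 10 genes took 0.177% of the counts of treated replicate 3, and 0.234% to 0.256% of those of the other 5 libraries.

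The 2 genes with the smallest p-values among the 10 act at the phosphofructokinase step. Pfkl averaged 77.9 ± 6.02 CPM in treated ganglia and 55.2 ± 5.12 CPM in control ganglia (SD, n = 3 each), and Pfkfb3 averaged 74.1 ± 17.5 and 45.2 ± 4.02 CPM, each without overlap between the groups. The inducible hexokinase gene Hk2 and Slc2a1 also had higher means in treated ganglia, with overlap. The abundant genes Pkm, Hk1, Pfkp, Ldha and Slc2a3 had lower means in treated ganglia, and for Pkm, Hk1, Pfkp and Slc2a3 the difference lay largely in treated replicate 3. With edgeR's quasi-likelihood test and Benjamini-Hochberg adjustment over all 16019 genes, 0 of the 10 passed an adjusted p of 0.05, the smallest being 0.568, against a background of 0.0% of all genes. Unadjusted p was under 0.05 for 4 of the 10, all with higher means in treated ganglia (background 6.67% of all genes, 4.0% higher and 2.67% lower). Without treated replicate 3, or without treated replicate 2, control replicate 1 or control replicate 2, only Pfkl and Pfkfb3 kept an unadjusted p under 0.05 (backgrounds 7.94%, 7.02%, 3.51% and 6.25% of all genes, in that order). Without treated replicate 1 all 4 kept it, and Pfkp and Ldha, with lower means in treated ganglia, were under it too (background 10.8%). DESeq2's Wald test called Pfkl and Pfkfb3, with adjusted p of 0.0321 and 0.0379 (background 89 of 16019 genes). With limma-voom 0 of the 10 were called (background 0 of 16019 genes). The same 2 had an unadjusted limma-voom p under 0.05 (background 5.66%). All 3 treated libraries lay above or below all 3 control libraries for 4 of the 10 (background 14.7%), namely Pfkl and Pfkfb3 above (background 7.07%) and Hk1 and Ldha below (background 7.63%). Without treated replicate 3 the same 4 genes did not overlap, against a background of 23.6% there. The 10 genes were chosen with earlier results of these data known, so these counts may in part be set by that choice.

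**Figure D1:**
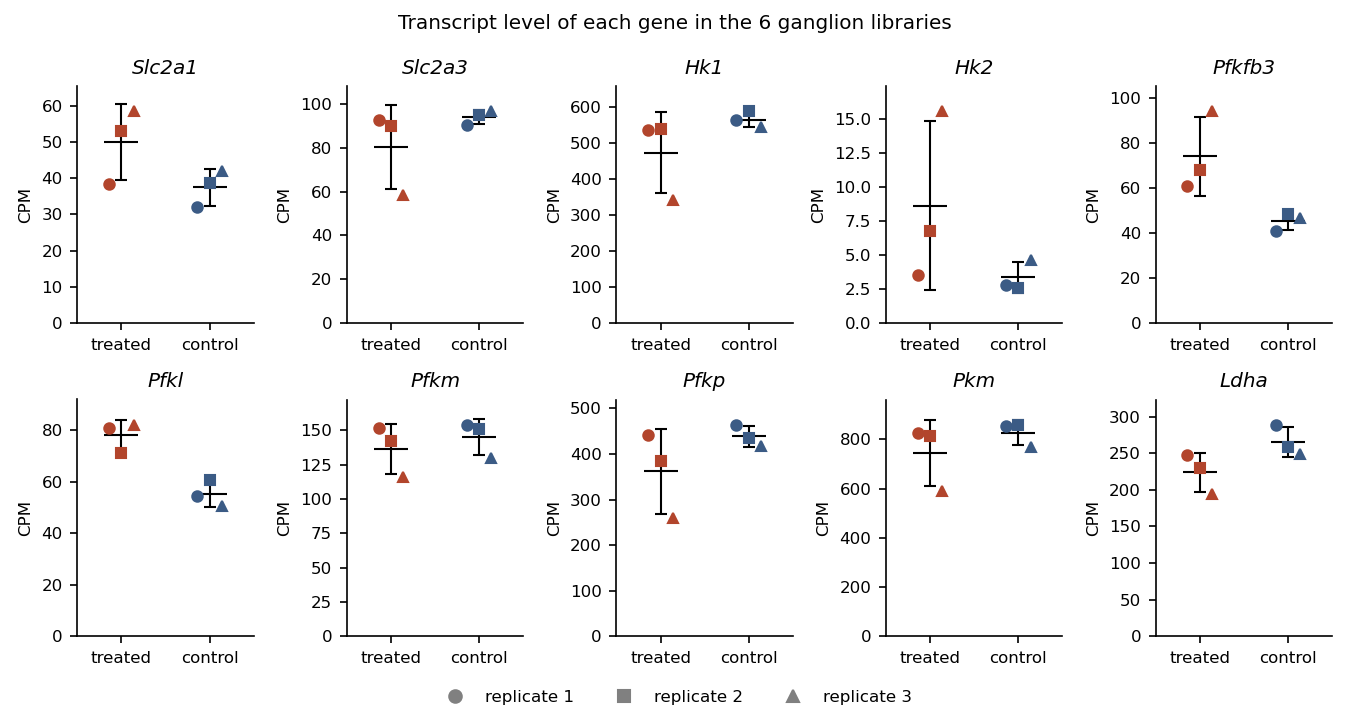
Level of each of the 10 genes in CPM (counts scaled to a common library size, linear axes from 0) in the 3 treated and the 3 control libraries, where symbols mark the replicate number and the bar gives the mean with its SD. All treated points lie above all control points for Pfkl and Pfkfb3 and below them for Hk1 and Ldha, and treated replicate 3 is the lowest point for Slc2a3, Hk1, Pfkm, Pfkp, Pkm and Ldha.

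Levels per kilobase of merged exon allow the genes to be ranked against each other. In control ganglia Pkm led with 165 ± 10.3 CPM per kb, followed by Ldha at 80.3 ± 6.18, Hk1 at 66.2 ± 2.54, Pfkm at 43.4 ± 3.88 and Pfkp at 32.7 ± 1.74 CPM per kb (SD, n = 3). Slc2a3 at 13.0 ± 0.448, Slc2a1 at 10.7 ± 1.45, Pfkl at 8.26 ± 0.767, Pfkfb3 at 5.97 ± 0.532 and Hk2 at 0.561 ± 0.192 CPM per kb came after them. No neighbours in that order overlapped between control libraries. In treated ganglia the first 5 places were the same, with Pkm at 149 ± 26.5 and Ldha at 67.7 ± 8.10 CPM per kb. The ranges of Ldha and Hk1, and those of Hk1 and Pfkm, overlapped there. Slc2a1 at 14.3 ± 2.97, Pfkl at 11.7 ± 0.902, Slc2a3 at 11.1 ± 2.65 and Pfkfb3 at 9.80 ± 2.32 CPM per kb overlapped with each other in treated ganglia, and Hk2 was again last at 1.45 ± 1.04 CPM per kb.

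Glucose transporters came first in the pathway. Slc2a1 (ENSMUSG00000028645, chromosome 4, 119108711 to 119137983, plus strand, GRCm38), which encodes GLUT1, had 38.4, 53.2 and 58.5 CPM in treated replicates 1, 2 and 3, against 31.9, 38.5 and 41.9 CPM in control replicates 1, 2 and 3. Treated replicates 2 and 3 stood above every control library, and treated replicate 1 lay within the control range. On the log2 scale the fold change was 0.41 ± 0.17 (SE), and edgeR gave an unadjusted p of 0.0460 and an adjusted p of 0.737. Without treated replicate 3 it was 0.29, at an unadjusted edgeR p of 0.123. Schwann cell markers summed to 1264, 1926 and 2014 CPM in treated replicates 1, 2 and 3. Their sums were 1024, 1641 and 1077 CPM in control replicates 1, 2 and 3. The treated sums ran in the order of Slc2a1, as did those of satellite glia, endothelial, fibroblast, macrophage, neutrophil and fat cell markers. Over the control libraries none of these lists followed the order of Slc2a1. All 6 Schwann cell markers had positive log2 fold changes, of 0.39 to 0.67, where 52.8% of all genes tested were positive. Of them 1 of 6 (Pmp22) had an unadjusted edgeR p under 0.05, and 0 of 6 were at 0 counts. Endothelial markers, whose cells carry GLUT1, summed to 140 to 182 CPM in treated libraries and 140 to 163 CPM in control libraries, with 0 of 6 under an unadjusted p of 0.05 and 0 of 6 at 0 counts. The part of these cell types in the result was not tested.

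Slc2a3 (ENSMUSG00000003153, chromosome 6, 122727809 to 122801640, minus strand), which encodes the neuronal transporter GLUT3, had 92.8, 90.0 and 58.2 CPM in treated replicates 1, 2 and 3, against 90.4, 95.1 and 96.6 CPM in the control libraries. Treated replicate 3 alone was low, treated replicate 1 lay within the control range and treated replicate 2 was just under it. The log2 fold change of -0.22 ± 0.17 (SE) did not pass (edgeR adjusted p = 0.777), and it was -0.04 without treated replicate 3, but -0.35 if treated replicate 1 was left out. The summed pan-neuronal markers were also lowest in treated replicate 3, at 4326 CPM against 5651 and 5457 CPM in the other treated libraries. Of the 6 markers Rbfox3 went the other way, at 131 CPM in treated replicate 3 and 94.6 to 127 CPM in the other 5 libraries. In whole ganglia, fewer cells of a type and less RNA per cell cannot be told apart.

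Set against each other per kilobase, Slc2a1 made up 46.1%, 55.0% and 67.5% of Slc2a1 plus Slc2a3 transcripts in treated replicates 1, 2 and 3, against 42.2%, 45.6% and 47.3% in the control libraries. The mean share was 56.2% ± 10.8 in treated and 45.0% ± 2.58 in control ganglia (SD, n = 3), a difference of 11.2 points with overlapping groups (two-sided exact permutation p = 0.2). With 3 libraries against 3 this test cannot go below 0.1. Without treated replicate 3 the difference was 5.50 points. The summed level of both transporters was 25.3 ± 2.00 CPM per kb in treated and 23.7 ± 1.89 CPM per kb in control ganglia.

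Hexokinase traps glucose inside the cell. Hk1 (ENSMUSG00000037012, chromosome 10, 62268855 to 62379908, minus strand), the constitutive form of neural tissue, had 535, 539 and 342 CPM in treated replicates 1, 2 and 3, against 562, 587 and 544 CPM in the control libraries. All treated libraries were below all controls, by little in replicates 1 and 2 and by much in replicate 3. Its log2 fold change was -0.26 ± 0.18 (SE, edgeR adjusted p = 0.758), and -0.07 without treated replicate 3.

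Hk2 (ENSMUSG00000000628, chromosome 6, 82725025 to 82774454, minus strand), the hexokinase form of muscle and fat whose transcription insulin raises in those tissues, was the scarcest of the 10. It had 119, 195 and 196 counts in treated replicates 1, 2 and 3, or 3.54, 6.79 and 15.6 CPM, against 49, 67 and 69 counts, or 2.81, 2.58 and 4.66 CPM, in the control libraries. Treated replicates 2 and 3 exceeded every control, and treated replicate 1 lay below control replicate 3. The log2 fold change of 1.36 ± 0.55 (SE) was the largest among the 10 and the least precise (edgeR unadjusted p = 0.0415, adjusted p = 0.737). Leaving out treated replicate 3 gave 0.64, leaving out control replicate 2 gave 1.18, and leaving out treated replicate 1 gave 1.72.

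Over the treated libraries Hk2 was lowest in replicate 1 and highest in replicate 3. The summed fat cell, neutrophil, macrophage, fibroblast, Schwann cell, satellite glia and endothelial markers had the same order there. Of these lists, only the fibroblast, macrophage and neutrophil sums followed the order of Hk2 over the control libraries. The 6 fat cell markers summed to 7.86, 53.2 and 451 CPM in treated replicates 1, 2 and 3 and to 11.1 to 36.7 CPM in the control libraries. None of the 5 tested fat cell markers had an unadjusted edgeR p under 0.05, and the only fat cell marker with 0 counts in any library was Lep, in control replicate 1. The 6 neutrophil markers summed to 0.982, 7.91 and 28.2 CPM in the treated libraries and to 0.731 to 7.64 CPM in the control libraries, with 0 of 4 tested under that p and Elane and Retnlg at 0 in some libraries. The 5 macrophage markers summed to 22.4, 37.8 and 135 CPM in the treated libraries and to 17.0 to 41.8 CPM in the control libraries, with 1 of 5 under that p and 0 at 0 counts. Skeletal muscle markers, the other tissue with much Hk2, summed to 6.27 to 33.6 CPM in treated and 14.8 to 148 CPM in control libraries. The part of these cells in the Hk2 and Slc2a1 values was not tested.

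Hk2 made up 0.936%, 1.77% and 6.12% of Hk1 plus Hk2 transcripts per kilobase in treated replicates 1, 2 and 3, against 0.709%, 0.624% and 1.21% in the control libraries. The mean was 2.94% ± 2.78 in treated and 0.848% ± 0.317 in control ganglia (SD, n = 3, two-sided exact permutation p = 0.2). The difference of 2.09 points was 0.505 points without treated replicate 3. Hk1 therefore supplied nearly all hexokinase transcripts counted here in every library.

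Phosphofructokinase is a tetramer of 3 kinds of subunit, named for liver (PFKL), muscle (PFKM) and platelets (PFKP), and the ganglia carried transcripts of each. Pfkl (ENSMUSG00000020277, chromosome 10, 77986947 to 78010083, minus strand) had 2712, 2038 and 1031 counts in treated replicates 1, 2 and 3, or 80.7, 71.0 and 82.0 CPM. The control libraries had 950, 1575 and 746 counts, or 54.5, 60.6 and 50.4 CPM. The lowest treated library stood above the highest control library, and treated replicate 3 did not stand out. The log2 fold change was 0.50 ± 0.10 (SE), a fold of 1.41 in mean CPM, with an unadjusted edgeR p of 0.00150 and an adjusted p of 0.568. It ranged from 0.43 to 0.56 over 17 alternative settings, with adjusted p from 0.0321 to 0.995, and was 0.46 without treated replicate 3.

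Pfkm (ENSMUSG00000033065, chromosome 15, 98092589 to 98132451, plus strand) had 152, 142 and 116 CPM in treated replicates 1, 2 and 3, against 154, 151 and 130 CPM in the control libraries. The groups overlapped, and the log2 fold change of -0.09 ± 0.12 (SE, edgeR adjusted p = 0.880) was 0.02 without treated replicate 3, but -0.18 if treated replicate 1 was left out. Pfkp (ENSMUSG00000021196, chromosome 13, 6579768 to 6648777, minus strand) had 441, 384 and 260 CPM in the treated libraries, against 464, 435 and 418 CPM in the control libraries. Treated replicates 2 and 3 lay below every control and treated replicate 1 within their range, with a log2 fold change of -0.28 ± 0.18 (SE, edgeR adjusted p = 0.754) that was -0.09 without treated replicate 3, but -0.45 if treated replicate 1 was left out. Pfkm and Pfkp overlap genes on the opposite strand, Senp1 and Pitrm1, and the strand setting of the counting is not given in the sources used here, so reads of each pair may not be told apart.

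A share within the family does not depend on the scaling between libraries. Pfkl made up 13.4%, 13.0% and 18.5% of phosphofructokinase transcripts per kilobase in treated replicates 1, 2 and 3, against 9.18%, 10.5% and 9.72% in control replicates 1, 2 and 3. Every treated share exceeded every control share. The mean was 15.0% ± 3.07 in treated and 9.79% ± 0.649 in control ganglia (SD, n = 3), a difference of 5.16 points at a two-sided exact permutation p of 0.1, the smallest this design allows. Without treated replicate 3 the difference was 3.39 points and the groups still did not overlap. Pfkp took 33.5% ± 3.84 in treated and 38.8% ± 1.35 in control ganglia, and Pfkm 51.5% ± 1.14 and 51.4% ± 1.06. The summed level of the 3 genes was 79.6 ± 12.2 CPM per kb in treated and 84.4 ± 5.93 CPM per kb in control ganglia, with overlap.

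**Figure D2:**
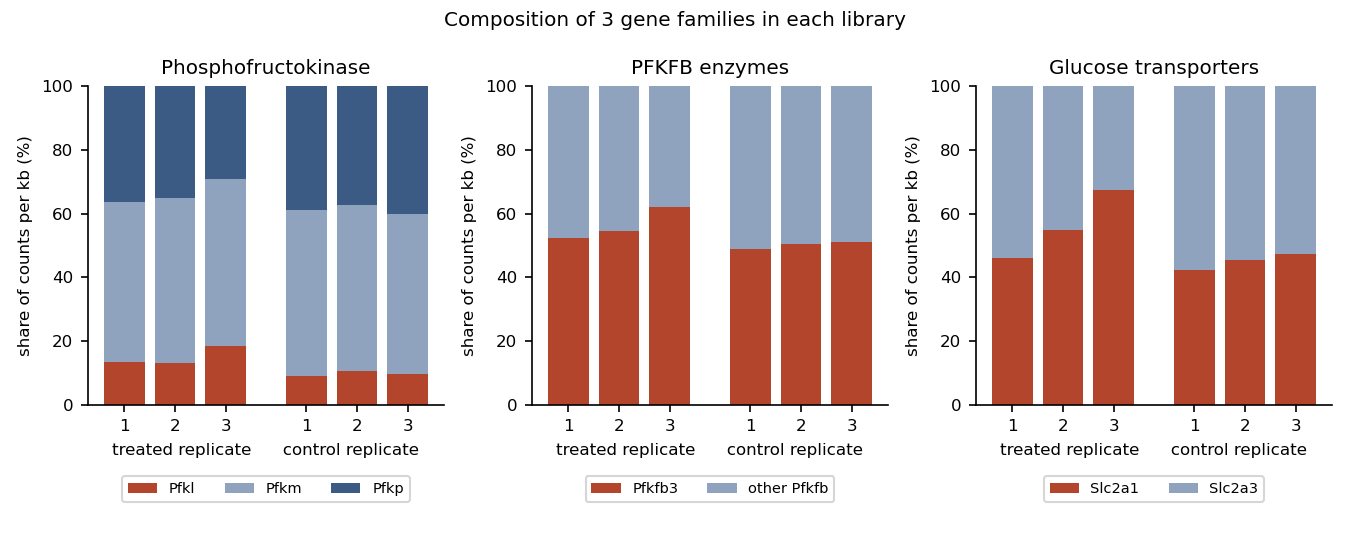
Share of each gene in its family's counts per kilobase (%, stacked to 100) in the 3 treated and 3 control libraries, for phosphofructokinase subunits, PFKFB enzymes and the transporters Slc2a1 and Slc2a3. The Pfkl and Pfkfb3 shares of all treated libraries exceed those of all control libraries, while the Slc2a1 share of treated replicate 1 lies within the control range.

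Pfkfb3 (ENSMUSG00000026773, chromosome 2, 11471433 to 11554077, minus strand) makes the activator of phosphofructokinase. It had 2036, 1947 and 1181 counts in treated replicates 1, 2 and 3, or 60.6, 67.8 and 93.9 CPM, against 709, 1256 and 689 counts, or 40.6, 48.3 and 46.6 CPM, in the control libraries. Each treated library stood above each control library, and treated replicate 3 was the highest. The log2 fold change was 0.71 ± 0.17 (SE), a fold of 1.64 in mean CPM, with an unadjusted edgeR p of 0.00319 and an adjusted p of 0.595. Leaving out treated replicate 3 gave 0.51 and leaving out treated replicate 1 gave 0.82, and the adjusted p ran from 0.0379 to 0.995 over 17 alternative settings. The fat cell, neutrophil, macrophage, fibroblast, Schwann cell, satellite glia and endothelial marker sums followed the order of Pfkfb3 over the treated libraries. Of these lists, only the Schwann cell and satellite glia sums followed it over the control libraries. The part of these cells in the Pfkfb3 value was not tested.

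PFKFB3 is a member of a family of 4 bifunctional enzymes. Pfkfb3 took 52.3%, 54.5% and 62.0% of Pfkfb1 to Pfkfb4 transcripts per kilobase in treated replicates 1, 2 and 3, against 48.9%, 50.5% and 51.0% in the control libraries, without overlap. The mean share was 56.3% ± 5.11 in treated and 50.1% ± 1.09 in control ganglia (SD, n = 3, two-sided exact permutation p = 0.1, the smallest possible). The difference of 6.14 points was 3.26 points without treated replicate 3. Pfkfb4, a further member, averaged 20.5 ± 0.986 CPM in treated and 14.9 ± 1.17 CPM in control ganglia, also without overlap, with a log2 fold change of 0.45 ± 0.12 (SE, edgeR unadjusted p = 0.00606, adjusted p = 0.621). Pfkfb2 averaged 19.8 ± 1.19 CPM in treated and 18.7 ± 1.11 CPM in control ganglia, at 0.08 ± 0.12. Pfkfb1 averaged 2.18 ± 1.48 and 1.17 ± 0.297 CPM, at 0.88 ± 0.58, and was at 0.24 without treated replicate 3. The list of 6 genes for other fructose bisphosphate control, which holds these 3, had 5 positive values and 1 negative value and a median of 0.20, or 0.03 if treated replicate 1 was left out. The summed level of Pfkfb1 to Pfkfb4 was 17.3 ± 2.46 CPM per kb in treated and 11.9 ± 0.841 CPM per kb in control ganglia.

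**Figure D3:**
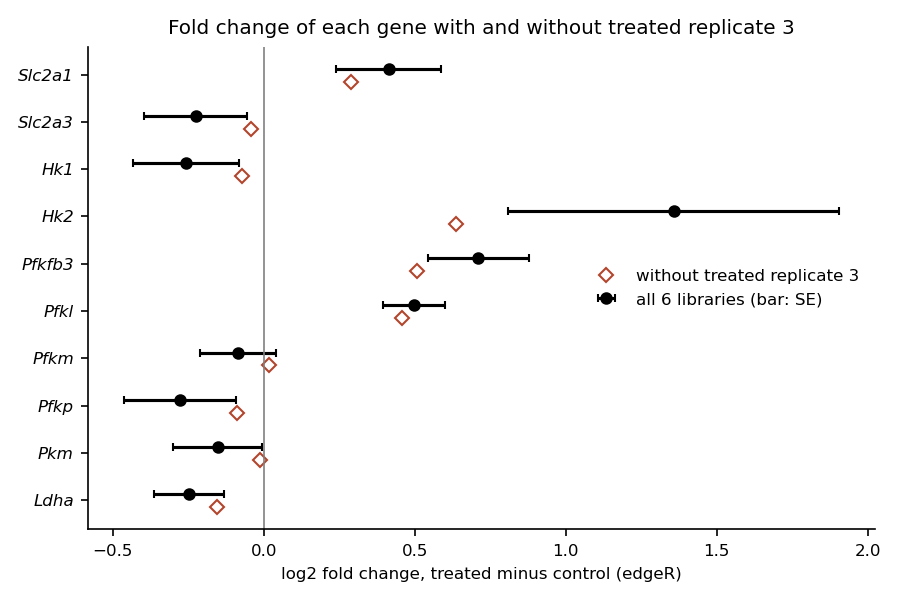
Log2 fold change of each of the 10 genes (treated minus control, edgeR), with its SE from all 6 libraries (filled points) and without treated replicate 3 (open diamonds). Pfkl is at 0.50 with all libraries and at 0.46 without that library, Hk2 is at 1.36 with all libraries and at 0.64 without that library, and the genes with negative values move towards 0.

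Promoter sequence is shown for Pfkl and Pfkfb3, whose groups did not overlap on the upper side, and for Ldha, which was on the lower side and is a textbook target of the hypoxia-inducible factor HIF-1. Hk1, also on the lower side, is not shown. The 250 bases before each RefSeq start site were searched on both strands for ACGTG, where CACGTG holds a match on each strand. ACGTG is a form of the core of the HIF-1 element, and GCGTG, another form, was not searched for. RefSeq windows of build GRCm38.p6 were found for 9 of the 10 genes, Slc2a3 being the gene without a window. Matches are in capitals, and each sequence is read 5′ to 3′ on the gene's strand. The Pfkl window is chr10:78009808-78010057 (minus strand), those of Pfkfb3 are chr2:11553930-11554179 for its first and chr2:11502091-11502340 for its second start (minus strand), and that of the first Ldha start is chr7:46845554-46845803 (plus strand).
Pfkl: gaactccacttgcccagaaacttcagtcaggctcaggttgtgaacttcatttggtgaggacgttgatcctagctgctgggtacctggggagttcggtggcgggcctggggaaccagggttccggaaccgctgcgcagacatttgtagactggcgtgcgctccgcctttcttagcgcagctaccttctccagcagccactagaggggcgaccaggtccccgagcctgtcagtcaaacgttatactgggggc
Pfkfb3 first start: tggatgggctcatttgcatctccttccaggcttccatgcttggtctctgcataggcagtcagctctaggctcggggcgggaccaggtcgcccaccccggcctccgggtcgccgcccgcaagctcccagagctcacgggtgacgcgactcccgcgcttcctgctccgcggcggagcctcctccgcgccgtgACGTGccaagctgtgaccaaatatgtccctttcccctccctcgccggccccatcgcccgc
Pfkfb3 second start: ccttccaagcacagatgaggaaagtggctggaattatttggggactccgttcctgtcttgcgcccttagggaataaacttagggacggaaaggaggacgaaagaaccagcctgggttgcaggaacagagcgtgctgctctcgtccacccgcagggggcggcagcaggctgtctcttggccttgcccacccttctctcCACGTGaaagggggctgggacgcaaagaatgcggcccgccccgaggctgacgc
Ldha first start: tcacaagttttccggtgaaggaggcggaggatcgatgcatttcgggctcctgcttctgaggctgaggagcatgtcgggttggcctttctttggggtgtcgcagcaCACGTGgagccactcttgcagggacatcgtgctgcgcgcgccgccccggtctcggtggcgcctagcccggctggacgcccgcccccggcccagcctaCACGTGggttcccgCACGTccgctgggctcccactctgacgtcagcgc

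The Pfkl window held 0 matches to ACGTG, although it holds GCGTG, which was not counted. The first Pfkfb3 window held 1 match that began 60 bases before the start, and the second Pfkfb3 window a CACGTG counted as 2 matches. The first Ldha window held 5 matches, made of 2 CACGTG and a further match, and the window of the second Ldha start, chr7:46846832-46847081, held 0. The windows of the first and second Hk1 starts also held 0 matches. Of the 16 windows of the 9 genes that had any, 8 held at least 1 match, where 16.6% of all 32851 windows in the table did. By gene, 6 of the 9 had a window with a match, and no background per gene was computed. Genes with several starts have more chances of a match, and some windows of Pfkm overlap. Whether matches were enriched among the 10 genes was not tested. At least 4 matches stood in 0.502% of all windows. A match describes letters in this window and does not show whether a factor was bound.

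Of the genes followed here, Pkm and Ldha, which act last in the pathway, had the highest mean levels per kilobase in both groups. Pkm (ENSMUSG00000032294, chromosome 9, 59656368 to 59679375, plus strand), the pyruvate kinase gene, had 825, 815 and 591 CPM in treated replicates 1, 2 and 3, against 855, 858 and 768 CPM in the control libraries. Treated replicate 3 alone lay outside the control range, and the log2 fold change of -0.15 ± 0.15 (SE, edgeR adjusted p = 0.810) was -0.01 without it, but -0.24 if treated replicate 1 was left out. Its M1 and M2 splice forms share a gene and were not separated by these gene counts.

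Ldha (ENSMUSG00000063229, chromosome 7, 46841475 to 46855627, plus strand), the lactate dehydrogenase subunit that favours lactate, had 247, 230 and 195 CPM in treated replicates 1, 2 and 3, against 289, 259 and 249 CPM in the control libraries. The highest treated library was just under the lowest control library. The log2 fold change was -0.25 ± 0.12 (SE), with an unadjusted edgeR p of 0.0691 and an adjusted p of 0.737, and it was -0.15 without treated replicate 3. Ldhb, its partner subunit, averaged 108 ± 7.64 CPM in treated and 105 ± 7.91 CPM in control ganglia. Ldha took 54.0%, 50.0% and 44.5% of Ldha plus Ldhb transcripts per kilobase in treated replicates 1, 2 and 3, against 57.6%, 51.9% and 54.3% in the control libraries, with overlap (difference -5.15 points, two-sided exact permutation p = 0.2). Without treated replicate 3 that difference was -2.64 points.

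**Figure D4:**
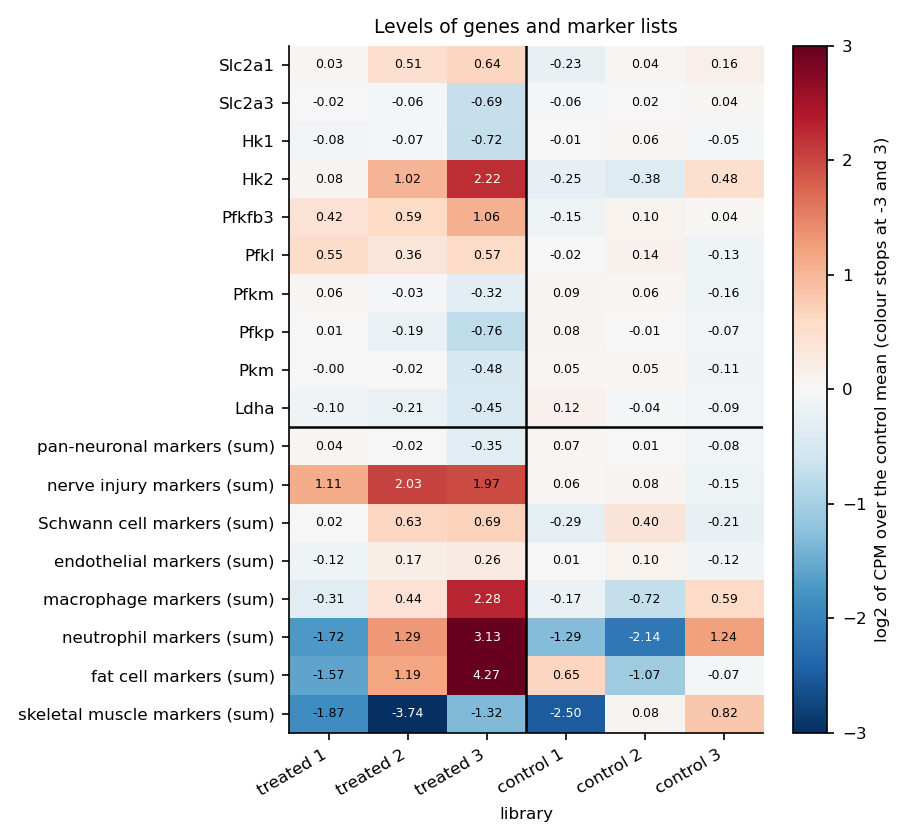
Log2 of each library's CPM over the control mean for the 10 genes (top block) and for the summed levels of marker lists (bottom block), with treated libraries on the left and colours that stop at -3 and 3. In treated replicate 3 Hk2 is at 2.22, fat cell markers at 4.27 and pan-neuronal markers at -0.35, while Pfkl is at 0.55, 0.36 and 0.57 in treated replicates 1, 2 and 3.

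Nerve injury markers also lay without overlap between the groups. All 7 of them, among them Atf3 and Jun, had treated libraries above all control libraries (background 7.07% of all genes). All 7 also had an unadjusted edgeR p under 0.05 with a higher mean in treated ganglia (background 4.0%). The list was chosen with earlier results of these data known, so these counts may in part be set by that choice. Their summed level was 264, 499 and 478 CPM in treated replicates 1, 2 and 3 and 110 to 129 CPM in the control libraries, with 0 of 7 at 0 counts. In treated replicates 1, 2 and 3 Pfkl had 80.7, 71.0 and 82.0 CPM, and Pfkfb3 had 60.6, 67.8 and 93.9 CPM. The part of nerve injury in these values was not tested.

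The rest of the pathway was read from 8 lists of 93 genes, chosen with earlier results of these data known. Of 91 list entries tested, 0 passed an adjusted p of 0.05 with edgeR, and 5 had an unadjusted p under 0.05 with a higher and 3 with a lower mean in treated ganglia (background 4.0% and 2.67%). DESeq2 called 1 of them, Mlxipl, and limma-voom 0 (background 89 and 0 of 16019 genes). The median log2 fold change of the entries was 0.05, beside 0.02 for all genes tested, and that of the 10 genes was -0.12, or 0.00 if treated replicate 3 was left out.

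Among 17 tested entries for other glycolytic enzymes, 13 lay below 0 and 4 above 0 on the log2 scale, at a median of -0.16 (-0.07 if treated replicate 3 was left out). Tpi1, the triose phosphate isomerase gene, averaged 121 ± 11.1 CPM in treated and 141 ± 2.80 CPM in control ganglia without overlap, at -0.22 ± 0.09 (SE, edgeR unadjusted p = 0.0494, adjusted p = 0.737). Aldoa, the aldolase A gene, averaged 1121 ± 154 CPM in treated and 1254 ± 43.5 CPM in control ganglia, at -0.16 ± 0.13. The tables hold a second gene under the symbol Aldoa, so how reads were split between the pair is uncertain. Gapdh, which makes 1,3-bisphosphoglycerate, was at -0.05 ± 0.14 (0.08 if treated replicate 3 was left out), and the neuronal enolase gene Eno2 at -0.28 ± 0.20.

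Other sugar transporters had a median of -0.02 over 11 genes, 5 above and 6 below 0 (0.11 if treated replicate 3 was left out). Slc2a13, a proton-coupled myo-inositol transporter gene, averaged 27.1 ± 9.93 CPM in treated and 47.1 ± 3.83 CPM in control ganglia without overlap, at -0.79 ± 0.27 (SE, edgeR unadjusted p = 0.0212, adjusted p = 0.696), and was at -0.53 without treated replicate 3. Slc2a4, which encodes GLUT4, the insulin-responsive transporter of muscle and fat, averaged 4.28 ± 4.96 CPM in treated and 1.49 ± 0.784 CPM in control ganglia. Its log2 fold change was -0.02 without treated replicate 3, the library with the highest fat cell markers.

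Regulators of glycolytic genes had 12 positive and 3 negative log2 fold changes among 15, at a median of 0.15 (0.17 if treated replicate 3 was left out). Mlxipl encodes ChREBP, a glucose-sensing transcription factor of liver and fat. It averaged 5.71 ± 4.35 CPM in treated and 1.11 ± 0.336 CPM in control ganglia, without overlap, at 2.36 ± 0.59 (SE, edgeR unadjusted p = 0.00439, adjusted p = 0.621), and was at 1.56 without treated replicate 3. Myc, a transcription factor that raises glycolytic genes in dividing cells, averaged 8.94 ± 0.526 CPM in treated and 5.65 ± 0.358 CPM in control ganglia, without overlap, at 0.66 ± 0.17 (edgeR unadjusted p = 0.00493, adjusted p = 0.621). Hif1a, which encodes the oxygen-regulated subunit of HIF-1, averaged 116 ± 5.80 CPM in treated and 103 ± 1.68 CPM in control ganglia, without overlap, at 0.17 ± 0.08 (edgeR adjusted p = 0.737), and Txnip, a glucose-induced inhibitor of glucose uptake, was at 0.69 ± 0.33 with overlap.

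Other hypoxia-responsive genes had 7 positive and 2 negative values among 9 tested, at a median of 0.17 (0.09 if treated replicate 3 was left out). Vegfa, the vascular growth factor gene, averaged 66.1 ± 13.8 CPM in treated and 50.9 ± 5.48 CPM in control ganglia, at 0.37 ± 0.16 with overlap (edgeR unadjusted p = 0.0471, adjusted p = 0.737), and was at 0.20 without treated replicate 3. Ndrg1, a hypoxia-induced gene of Schwann cells, was at 0.35 ± 0.20. Of 10 glycogen genes, which had a median of 0.05 that turned to -0.05 without treated replicate 1, the phosphoglucomutase genes Pgm2 at 0.64 ± 0.25 and Pgm1 at -0.33 ± 0.12 had unadjusted edgeR p-values of 0.0328 and 0.0207 and did not overlap. Pygb, the brain glycogen phosphorylase gene, was at 0.00 ± 0.13.

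Genes for lactate and pyruvate handling had a median of -0.06, with 7 positive and 9 negative values among 16 and 0 under an unadjusted p of 0.05. Pdha1, the gene of a pyruvate dehydrogenase subunit, averaged 244 ± 2.49 CPM in treated and 262 ± 6.79 CPM in control ganglia without overlap, at -0.11 ± 0.08. Bsg, the chaperone of the lactate transporters, averaged 253 ± 25.8 CPM in treated and 251 ± 5.48 CPM in control ganglia, at 0.01 ± 0.10. Of 7 pentose phosphate genes 6 had positive values, with a median of 0.08 and 0 under that p, and the transketolase gene Tkt averaged 198 ± 3.72 CPM in treated and 190 ± 12.8 CPM in control ganglia.

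**Figure D5:**
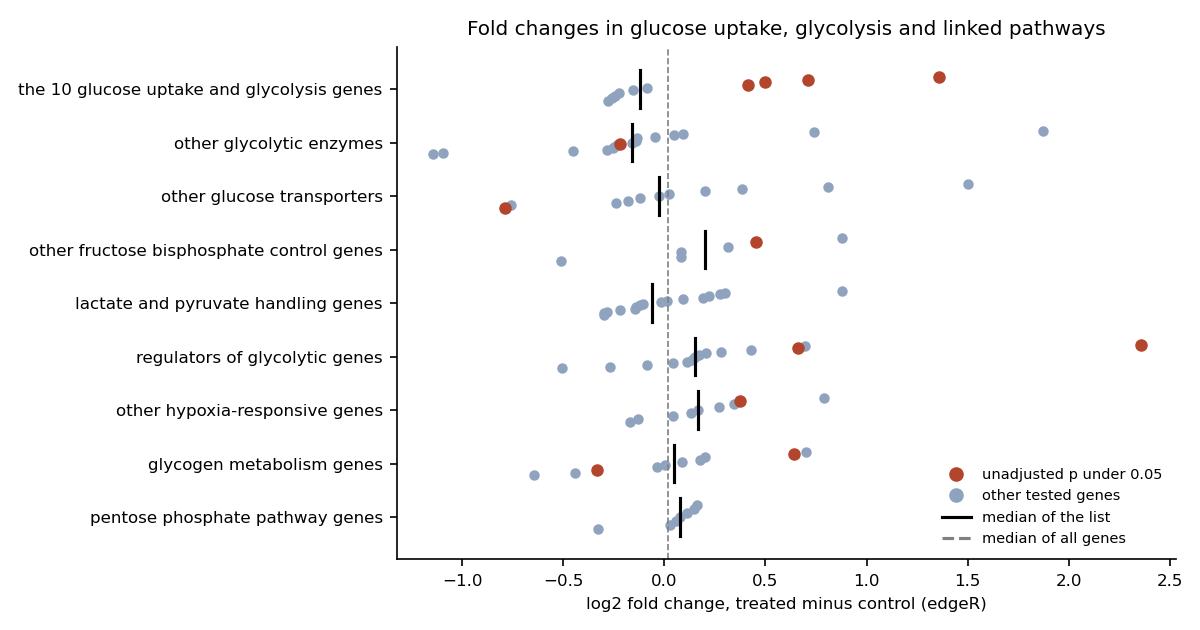
Log2 fold change (treated minus control, edgeR) of each tested gene of the 10 glucose uptake and glycolysis genes and of 8 lists from linked pathways, with red points for an unadjusted p under 0.05, a black bar for the median of each list and a dashed line for the median of all genes. The 4 red points of the 10 genes lie right of 0, and the medians of the other lists lie between -0.16 and 0.20.

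The genes whose levels over the 6 libraries were most like Pfkl, among 11807 genes at a mean of at least 5 CPM, were Galnt17, Mctp2 and Errfi1, with Pearson's r of log2 CPM of 0.997, 0.994 and 0.991. Those most like Pfkfb3 were Cop1, Sgpl1 and Cdc42se1, with r of 0.995, 0.992 and 0.992. These are the highest values among many genes over 6 libraries and describe likeness in these libraries only.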

How the data were processed

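Per the labels' protocols, strand-specific RNA-seq libraries were made from roughly 6 ng of RNA and sequenced to a read length of 100 bp. The authors deposited raw read counts per gene, 1 table per library. Build mm10 and the tools STAR 2.7.7a, bcl2fastq 2.20, edgeR and DESeq2 are named in the submitters' processing notes. How reads were counted, with which annotation and strand setting, is not given in the sources used here. Gene spans and lengths came from GENCODE M21 (GRCm38), which matched 32663 of 32719 identifiers.

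Counts were fitted with edgeR 4.0.16 (R 4.3.3): filterByExpr with a minimum count of 10, TMM scaling, and a robust quasi-likelihood F test with Benjamini-Hochberg adjustment over 16019 genes. CPM use the TMM-scaled library size. A fold change is treated over control, with its SE taken as |log2 fold change| / sqrt(F). Shares used counts per kilobase of merged exon, with SciPy 1.17.1 exact permutation tests. Alternatives were other scalings and filters, the replicate number as a block, each library left out, limma-voom (limma 3.58.1) with and without sample weights, DESeq2 1.42.0, small RNA and haemoglobin genes left out, protein-coding genes only, and other gene lengths. The edgeR script was also run on simulated counts with known changes. Depth was 12898607 to 33522486 counts, and each of the 10 genes had at least 49 counts in each library.

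The 10 genes and the 8 pathway and 13 marker lists were chosen with earlier results of these data known. Beyond the 10, named genes are list members with an unadjusted p under 0.05, where a list has none its tested member with the largest mean CPM, and the 3 genes most correlated with each of the 2 members with the smallest p. Others (Aldoa, Bsg, Ndrg1, Pygb, Ldhb, Pfkfb1, Pfkfb2, Slc2a4, Gapdh, Eno2, Hif1a, Txnip) were named after their values were seen.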

Additional observations from a re-analysis of the deposited data

How the results depend on the processing

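Under the DESeq2 Wald test 2 of the 10 genes and 1 pathway gene passed an adjusted p of 0.05, against 0 and 0 with edgeR. Pfkl was then at a log2 fold change of 0.49 (adjusted p = 0.0321) and Pfkfb3 at 0.70 (adjusted p = 0.0379), and the cause was not tested. DESeq2 called 89 of all 16019 genes, limma-voom with sample weights 8 of 16019 and edgeR without its filter 26 of 27618. EdgeR called 7 genes without treated replicate 1 and 9 without treated replicate 3. With all libraries and its filter edgeR called 0 and had 1068 at an unadjusted p under 0.05. No member or pathway gene passed an adjusted p of 0.05 under any other setting run. An adjusted p under 0.1, set on the edgeR fit with all libraries and its filter, called 0 of them, while without that filter the adjusted p of Pfkfb3 was 0.0591.

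The number of members with an unadjusted p under 0.05, 4 with edgeR, was 2 with limma-voom. With each library left out it was 2 to 6, being 2 without control replicate 1, control replicate 2, treated replicate 2 or treated replicate 3. It was 5 with limma-voom and sample weights and 5 with the replicate block (9.43% of all genes). In both, Ldha, with a lower mean in treated ganglia, joined the 4. The number of pathway genes under that p, 8 with edgeR, was 16 with limma-voom and sample weights. With each library left out it was 3 to 14 (3 without control replicate 1 and 14 without treated replicate 1). Of all genes, 6.67% were under that p with edgeR, 5.66% with limma-voom, 11.6% with sample weights, 3.51% without control replicate 1 and 10.8% without treated replicate 1. Pfkm alone changed sign, at -0.18 to 0.0186 with each library left out (0.0186 without treated replicate 3). The 9 others kept their sign in all settings run, although Hk2 was not tested at 5 CPM in 3 libraries. With each library left out the Pfkl share differed by 3.39 to 6.14 points, the Pfkfb3 share by 3.26 to 8.14, the Slc2a1 share by 5.50 to 16.2, the Hk2 share by 0.505 to 3.10 and the Ldha share by -7.39 to -2.64, and raw counts or longest transcripts kept each direction, with the Hk2 share at 1.17 points by longest transcript against 2.09. The median of glycogen genes turned to -0.05 without treated replicate 1, and that of other sugar transporters ran from -0.04 to 0.11 with each library left out.

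Replicate numbers are shared between the groups, and same-numbered libraries correlated at 0.0142, 0.564 and 0.488 in their deviations from the group means. Control replicates 2 and 3 correlated best with the treated library of the same number, and control replicate 1 with treated replicate 3 (0.125). The numbers were not taken as pairs in the edgeR fit used above, and the replicate block was run as an alternative. With the replicate block 0 of the 10 genes passed, Pfkl was at 0.50 (adjusted p = 0.402) and Pfkfb3 at 0.69 (adjusted p = 0.324), and the pathway genes with an unadjusted p under 0.05 numbered 20, where 9.43% of all genes were under it. Hk2, with 49 to 196 counts, is the member most limited by depth.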
